A study of Mus musculus with 4 samples.

Results

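By array RNA signal, osteoprotegerin, the secreted decoy receptor of the RANK pathway, and TRAF2 were more highly expressed in NFATc1-deficient than in wild-type osteoclast cultures. Protein was not measured. The size of the osteoprotegerin change is poorly fixed, since its wild-type signals were at a level whose standing against background is unknown. TRAF6 was less expressed, but its calls were lost under some other settings of the fit and when some single arrays were left out. The receptor RANK and the TAK1 and NIK kinases did not pass the test. The genes described are Tnfrsf11a (RANK), Tnfrsf11b (osteoprotegerin), the adaptors Traf6, Traf2 and Traf3, and the kinase genes Map3k7 (TAK1) and Map3k14 (NIK). Also described is Tab2, whose product TAB2 is a partner of TAK1. Every probe set whose only gene symbol in the platform annotation was one of these 8 was taken, which gave 17 probe sets for 7 genes, out of 22690 probe sets and 12394 genes with such a probe set in all. Traf3 had none and was not analysed here.

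RANK is a member of the TNF receptor superfamily on osteoclast precursors, and its ligand RANKL drives them to form osteoclasts. Osteoprotegerin binds RANKL in solution and keeps it from RANK. The bound receptor has no enzyme activity and recruits TRAF adaptors. TRAF6 passes the signal to the kinase TAK1, held by its ubiquitin-binding partner TAB2, and from there to NF-kappaB, MAP kinases and NFATc1. TRAF2 and TRAF3 restrain the kinase NIK in resting cells, and NIK starts the alternative NF-kappaB pathway.

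The NFATc1-deficient group came from C57BL/6 mice of genotype NFATc1 fl/fl MxCre+, in which polyIC induced the excision, and the wild-type group from C57BL/6 mice of genotype NFATc1 fl/fl MxCre-. Both groups thus carried the floxed alleles. Whether wild-type mice also received polyIC, and how old the mice were, is not stated in the labels. The Mx promoter answers to interferon in many blood and non-blood cells and is not specific to osteoclast precursors. Precursors negative for CD11b, CD3e and B220 and positive for c-Kit and c-Fms were sorted from marrow pooled from 3 mice for replicate 1 and 4 mice for replicate 2. Wells received 20000 cells each, which grew for 3 days in M-CSF and RANKL, and each group had 2 arrays, 4 in all. Median signals of the arrays ran from 111.6 to 130.

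Nfatc1 signal was lower on both deficient arrays but far from lost. The brighter probe set, 1417621_at, had signals of 3018.2 and 4097.9 in deficient cultures, against 5433.6 and 6146.7 in wild-type cultures. Its change was -0.71 (SE 0.15, adjusted p = 0.0103) and that of 1425761_a_at was -0.55 (SE 0.12, adjusted p = 0.0128). Changes here and below are NFATc1-deficient minus wild-type on the log2 scale of signal + 23.3, and each adjusted p is from limma over all 13575 probe sets tested. Without NFATc1-deficient replicate 1 neither probe set passed (adjusted p = 0.087 and 0.0949), and neither did without the variance trend (0.0612 and 0.0675). The place of these probe sets relative to the excised exons was not analysed here.

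Of the 17 probe sets, 16 were bright enough to be tested and 5 passed an adjusted p of 0.05. That share stands beside 24.3% of all probe sets tested. The 3 higher ones, both of Tnfrsf11b and the one of Traf2, stand beside 12.8% higher over all probe sets. The 2 lower ones, both of Traf6, stand beside 11.4% lower. The Tnfrsf11b probe sets were bright enough to be tested only through the deficient arrays, with wild-type mean signals of 18.5 and 4.8. They entered these counts through the group in which they are high, so no conclusion is drawn from the shares. Both deficient signals lay outside both wild-type signals for 11 of the 16, 7 above and 4 below, against 63.2% over all probe sets (34.4% above and 28.8% below). Such separation alone was therefore common on these arrays, and 6 of the 11 separated probe sets did not pass the test.

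**Figure D1:**
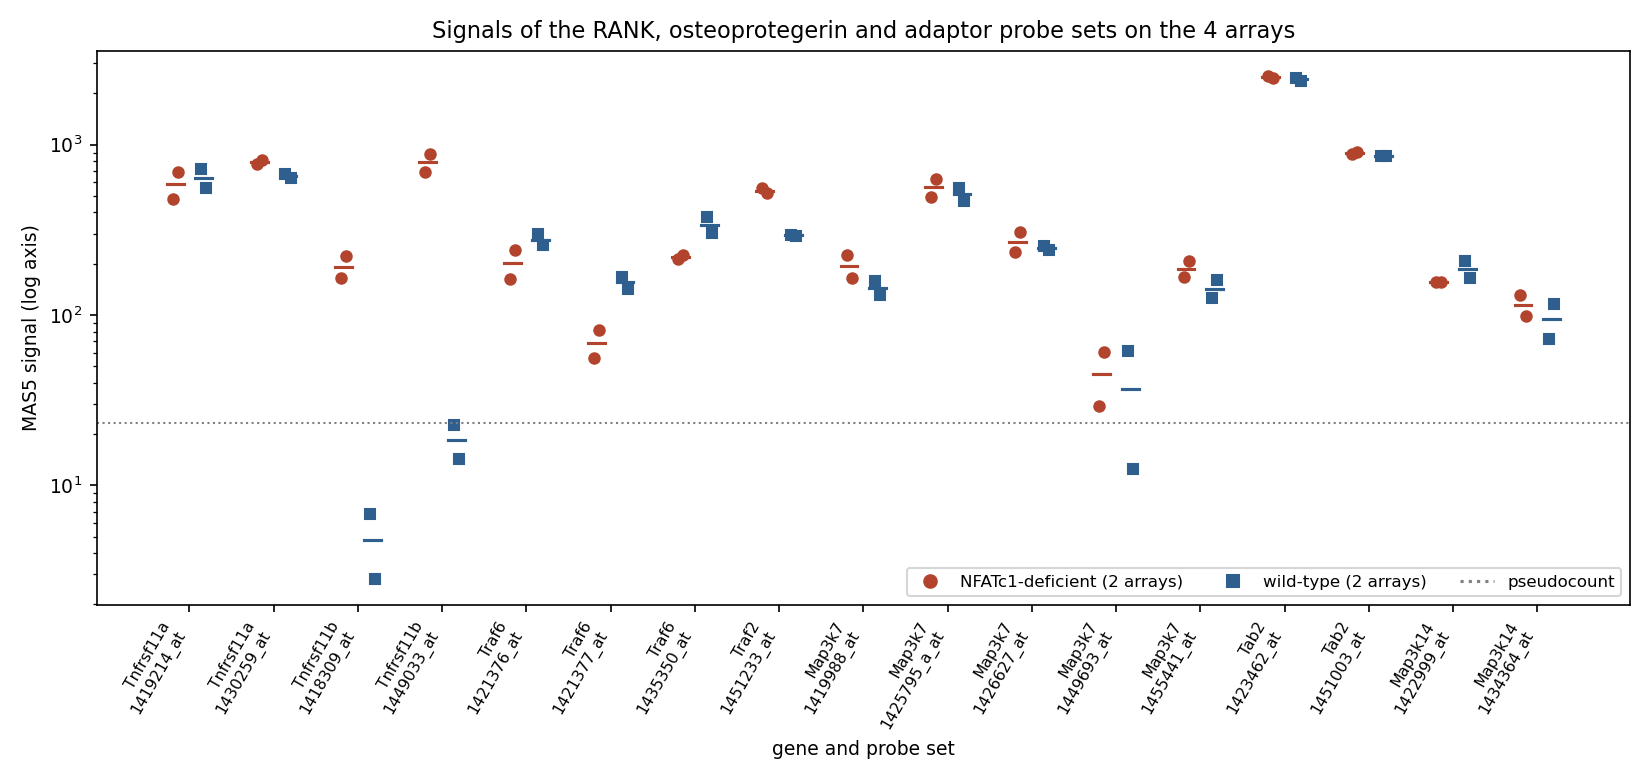
MAS5 signal on a log axis for each of the 17 probe sets, with NFATc1-deficient arrays as circles, wild-type arrays as squares, horizontal bars at the group means and a dotted line at the pseudocount of 23.3. Both Tnfrsf11b probe sets lie below the line on both wild-type arrays and above it on both deficient arrays, Traf2 is higher and the 3 Traf6 probe sets are lower in deficient cultures, and the groups of the other genes lie close together or overlap.

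Tnfrsf11b was far higher in deficient cultures at both of its probe sets. Probe set 1449033_at had signals of 692.6 and 880.2 in deficient cultures, against 22.7 and 14.3 in wild-type cultures. The groups lay far apart, and both wild-type signals were below the pseudocount. The mean signal was 786.4 ± 132.7 in deficient and 18.5 ± 5.94 in wild-type cultures (SD, n = 2 each). The change was 4.27 (SE 0.23, adjusted p = 5.33e-05), rank 1 of 13575 on this scale, and rank 1 also with pseudocounts of 11.65 and 46.6.

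The second Tnfrsf11b probe set, 1418309_at, behaved likewise at a lower signal. It read 164 and 220.8 in deficient cultures, against 6.8 and 2.8 in wild-type cultures. Both wild-type signals again lay below the pseudocount. The change was 2.93 (SE 0.31, adjusted p = 0.000555), rank 3 on this scale and rank 6 with a pseudocount of 46.6. Both probe sets were designed from the same transcript record, so they are 2 readings of 1 RNA. Both passed the filter on low signals only through the deficient arrays, since their wild-type means lay below the filter signal of 62.

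The size of the Tnfrsf11b change is poorly fixed because the wild-type signals are at a level whose standing against background is unknown. With a pseudocount of 11.65 the changes were 4.73 and 3.63, and with one of 46.6 they were 3.67 and 2.21, for 1449033_at and 1418309_at in that order. For 1449033_at the difference was 3.96 within replicate number 1 and 4.59 within replicate number 2. Both probe sets kept their call under every alternative in which they were tested. In bulk cultures, a change in RNA per cell and a change in the number of cells that make the RNA cannot be told apart.

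Osteoprotegerin is made mainly by osteoblasts and stromal cells, and also by endothelial cells and B cells, so their markers are given beside it. Of 14 osteoblast and stromal markers on the array, 3 were bright enough to be tested and 0 passed (0 also by an unadjusted p under 0.05). Their summed signal was 611 and 618.1 in deficient cultures, against 754.3 and 535.5 in wild-type cultures, and the mean signals of Col1a1, Col3a1 and Pdgfrb were below the pseudocount. Collagen gene Col1a2 read 90.3 and 76.6 in deficient cultures, against 103.7 and 79.9 in wild-type cultures. The changes of the 3 tested markers were -0.10 for Col1a2 (adjusted p = 0.816), 0.17 for Dcn (adjusted p = 0.628) and -0.22 for Vcam1 (adjusted p = 0.619). The summed signals of the groups overlapped.

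Endothelial and B cell markers were mostly dim as well, with 5 and 6 of 7 under the filter signal. The 7 endothelial markers summed to 270.7 and 334.5 in deficient cultures, against 483.9 and 246.9 in wild-type cultures, with Emcn and Tek below the pseudocount. The 7 B cell markers summed to 410.5 and 351.8 in deficient cultures, against 426.4 and 270.4 in wild-type cultures, with Ebf1, Pax5 and Vpreb1 below it. In both lists the groups overlapped. The 9 dendritic cell markers, which include MHC class II genes, summed to 7419.9 and 6849.6 in deficient cultures, against 5594.4 and 4672.4 in wild-type cultures. Of 6 tested, 3 rose, beside 12.9% of all genes at 1 probe set each. The 3 were H2-Eb1, H2-Aa and H2-Ab1, all of MHC class II, while Cd74 (0.30, adjusted p = 0.156), Itgax (0.07, adjusted p = 0.817) and Flt3 (-0.55, adjusted p = 0.411) did not pass. The part of endothelial, B and dendritic cells in the Tnfrsf11b result was not tested.

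Likeness to the Tnfrsf11b profile was sought among 7796 other genes and measured as the root mean square difference of log2 values centred on their mean over the 4 arrays. The nearest were the protease inhibitor Serpinb1a (0.81), Ndrg4 (0.97), the metalloproteinase Adamts5 (0.99), the serotonin transporter Slc6a4 (1.03) and the transporter Slc6a12 (1.09). Serpinb1a read 1695.5 and 1227.8 in deficient cultures, against 145.6 and 215.7 in wild-type cultures. These are the genes with the next highest changes, from 2.87 for Serpinb1a to 2.14 for Slc6a12. The distances depend on the pseudocount, since the wild-type means of Tnfrsf11b, Adamts5 and Slc6a12 lay below the filter signal. With a pseudocount of 11.65 and with one of 46.6, settings chosen after the values were seen, Serpinb1a was again the nearest (0.99 and 0.59) and 4 of the 5 genes were shared.

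Tnfrsf11a, the gene of RANK itself, was well detected in both genotypes and its 2 probe sets gave changes of opposite sign. Probe set 1430259_at read 768.2 and 818.2 in deficient cultures, against 675.5 and 636.4 in wild-type cultures. Both deficient signals lay above both wild-type signals. The change was 0.27 (95% interval -0.01 to 0.54, adjusted p = 0.155). Probe set 1419214_at read 479.7 and 688.3 in deficient cultures, against 722.5 and 560.6 in wild-type cultures, and here the groups overlapped. Its change was -0.14 (95% interval -0.58 to 0.30, adjusted p = 0.649), with -0.57 within replicate number 1 and 0.29 within replicate number 2. The receptor's level therefore was not shown to differ, and the intervals leave room for a change of up to 0.54 upward or 0.58 downward.

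Traf6, the adaptor needed for the canonical RANK signal, was lower at all 3 probe sets, and 2 of them passed. Probe set 1421377_at read 55.7 and 81.7 in deficient cultures, against 168.1 and 142.9 in wild-type cultures. The deficient mean was 44.2% of the wild-type mean. The change was -0.97 (SE 0.26, adjusted p = 0.0264).

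Probe set 1435350_at, the brightest for Traf6, read 214.2 and 225.9 in deficient cultures, against 375.3 and 302.7 in wild-type cultures. The deficient signals were close together and below both wild-type signals. The change was -0.57 (SE 0.18, adjusted p = 0.0482), just inside the threshold. Probe set 1421376_at read 163.1 and 239.5 in deficient cultures, against 297.9 and 256 in wild-type cultures, and did not pass (-0.44, adjusted p = 0.181). It shares its sequence record with 1421377_at, so the 3 probe sets stand for 1 gene and not for 3 measurements of the condition.

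Among the called probe sets of the RANK, osteoprotegerin and adaptor genes, those of Traf6 were the only ones that lost their call under any alternative run. Without a filter on low signals the adjusted p was 0.0889 for 1421377_at and 0.1 for 1435350_at. Without wild-type replicate 1 it was 0.0706 and 0.198, without NFATc1-deficient replicate 1 it was 0.155 and 0.174, and 1435350_at also failed without NFATc1-deficient replicate 2 (0.0965) and without the variance trend (0.0639). With the log2 values of all 3 probe sets averaged, a setting chosen after the values were seen, Traf6 had a change of -0.66 (SE 0.19, adjusted p = 0.0383). The sign was negative at each probe set under each alternative.

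Traf2 moved the other way. This adaptor binds RANK and other TNF receptors and carries the cIAP ubiquitin ligases that, with TRAF3, keep NIK low. Its only probe set, 1451233_at, read 554.4 and 521.4 in deficient cultures, against 296.9 and 292.1 in wild-type cultures. Replicates were close and the groups well apart, so the mean signal was 1.83 times as high in deficient cultures. The change was 0.82 (SE 0.14, adjusted p = 0.00459), and it passed under all 12 alternatives, with changes from 0.78 to 0.86.

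**Figure D2:**
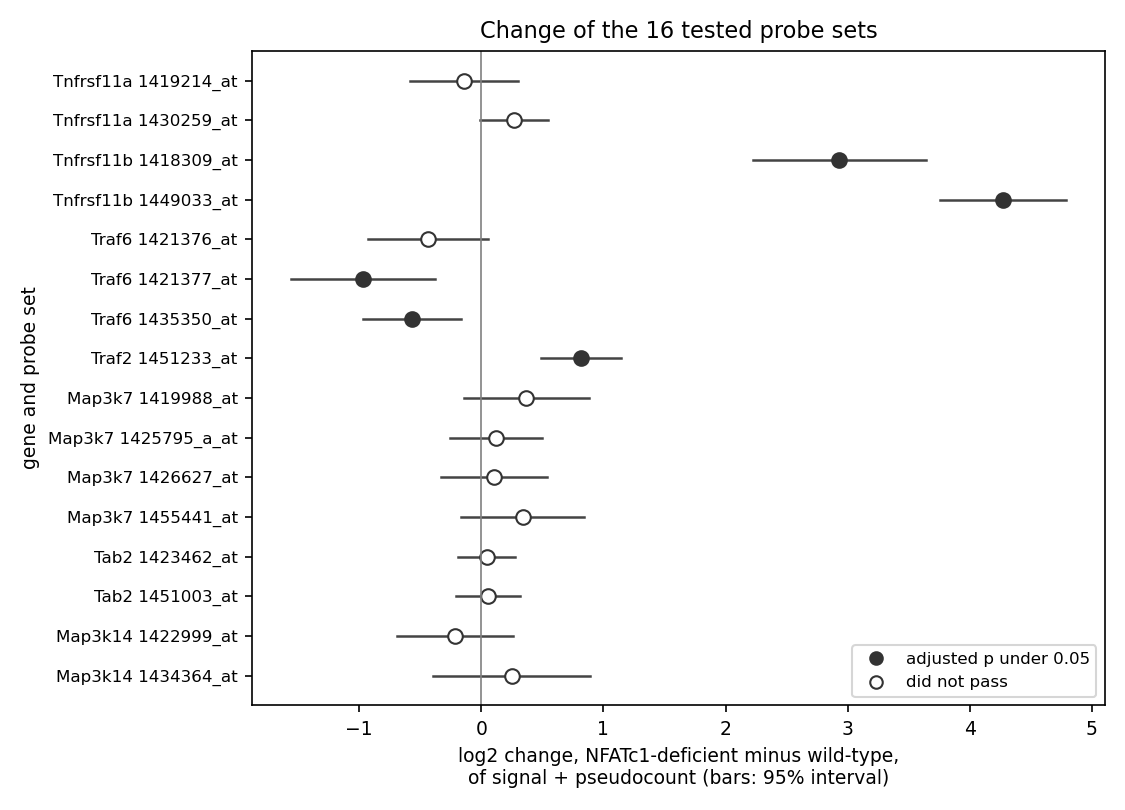
Log2 change of signal + 23.3, NFATc1-deficient minus wild-type, for the 16 tested probe sets, with bars for the 95% interval, filled points for an adjusted p under 0.05 and open points for those that did not pass. Both Tnfrsf11b probe sets (4.27 and 2.93) and Traf2 (0.82) lie to the right of 0, 2 Traf6 probe sets (-0.97 and -0.57) lie to the left, and the intervals of the other 11 include 0.

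The kinase genes next in the pathway and the TAK1 partner gene Tab2 did not pass at any probe set. Tab2, whose product links TAK1 to ubiquitin chains, was the most precisely measured. Probe set 1423462_at read 2534.5 and 2464.5 in deficient cultures, against 2481.1 and 2368 in wild-type cultures, a change of 0.04 (95% interval -0.19 to 0.27, adjusted p = 0.799). Probe set 1451003_at read 879.8 and 907.1 in deficient cultures, against 861.8 and 856.5 in wild-type cultures, a change of 0.05 (95% interval -0.21 to 0.31, adjusted p = 0.774). The first pair of groups overlapped and the second did not, and the intervals bound a Tab2 change more tightly than that of any other gene of the set.

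Map3k7, which encodes TAK1, had 5 probe sets, of which 4 were tested and all 4 had positive changes that did not pass. The brightest, 1425795_a_at, read 493.8 and 629 in deficient cultures, against 560 and 465.1 in wild-type cultures. The groups overlapped and the change was 0.12 (95% interval -0.25 to 0.50, adjusted p = 0.644). Probe set 1426627_at also overlapped (0.10, adjusted p = 0.736). Both deficient signals were above both wild-type signals for 1419988_at, with 223.9 and 166 in deficient cultures, against 159.4 and 130.5 in wild-type cultures (0.37, adjusted p = 0.278). The same held for 1455441_at, with 166.2 and 206.8 in deficient cultures, against 125.4 and 159.8 in wild-type cultures (0.34, adjusted p = 0.311). The fifth, 1449693_at, was too dim to be tested, at 29.4 and 60.8 in deficient cultures, against 61.1 and 12.4 in wild-type cultures, and shares its sequence record with 1419988_at.

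Map3k14, which encodes NIK, had 2 probe sets of low signal that disagreed in sign. Probe set 1422999_at read 157 and 155.4 in deficient cultures, against 208.6 and 164.2 in wild-type cultures. Both deficient signals were the lower, but the change of -0.22 did not pass (95% interval -0.69 to 0.26, adjusted p = 0.499). Probe set 1434364_at read 130.6 and 98.9 in deficient cultures, against 72.2 and 116.3 in wild-type cultures, with overlap (0.25, 95% interval -0.39 to 0.89, adjusted p = 0.572). NIK is controlled mainly through protein breakdown, which these arrays do not measure.

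**Figure D3:**
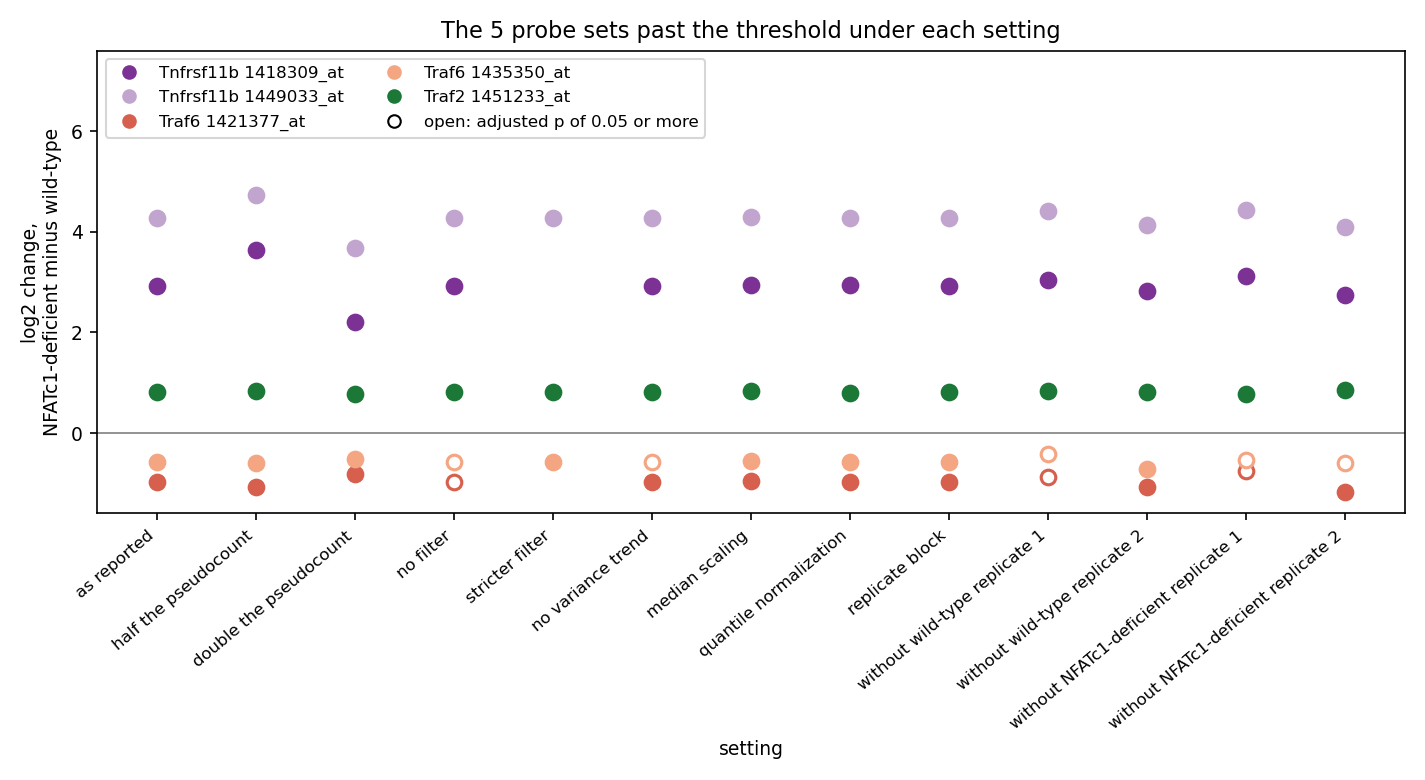
Log2 change, NFATc1-deficient minus wild-type, of the 5 probe sets past the threshold, as reported and under 12 other settings, with filled points for an adjusted p under 0.05 and open points otherwise. Tnfrsf11b and Traf2 are filled wherever they were tested, and the open points are all of Traf6. The probe sets 1418309_at and 1421377_at have no point under the stricter filter, which left them out.

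The other TRAF genes and TRAF regulators moved in both directions. Of 34 genes listed, 28 were on the array and 27 were tested, 5 rose and 3 fell, with a median change of 0.05. The count of 8 was 5 without wild-type replicate 2, without NFATc1-deficient replicate 1 or without NFATc1-deficient replicate 2, and 4 with no filter. As fitted, 29.6% were called, against 24.9% of all 7797 genes at 1 probe set each (12.9% higher and 12.0% lower, median 0.03). Traf1, a TRAF family member that pairs with TRAF2 and is itself an NF-kappaB target, read 1742.5 and 1513.8 in deficient cultures, against 776.8 and 774.4 in wild-type cultures. Its change was 1.04 (SE 0.12, adjusted p = 0.000721). Traip, a ubiquitin ligase first described through its binding to TRAFs that acts in DNA replication and mitosis, rose by 1.03 (adjusted p = 0.0164) and lost the call with no filter (0.0621) and without NFATc1-deficient replicate 2 (0.117). The remaining genes of the list that rose, named after their values were seen, were Ajuba (0.70, adjusted p = 0.034), Ube2v2 (0.59, adjusted p = 0.00867, with -0.07 at another probe set that did not pass) and Traf7 (0.52, adjusted p = 0.0421). Sharpin was counted at its brighter probe set, which did not pass (0.05, adjusted p = 0.877), though another rose (0.57, adjusted p = 0.0201). Leaving out single arrays ended the Traf7 call each time (adjusted p from 0.0633 to 0.196) and the Ajuba call for every array but wild-type replicate 1 (up to 0.153).

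The genes of this list that fell were Tank, Traf3ip2 and Sqstm1. Tank, a TRAF-binding inhibitor of NF-kappaB signalling, read 1568.5 and 1397.1 in deficient cultures, against 2603.9 and 3077.7 in wild-type cultures (-0.92, SE 0.12, adjusted p = 0.00135). Traf3ip2, an adaptor of the IL-17 receptor that recruits TRAF6, changed by -0.79 (adjusted p = 0.0198), but did not pass without a filter (0.0586), without wild-type replicate 2 (0.0825) or without NFATc1-deficient replicate 1 (0.0871). Sqstm1, chosen after its values were seen, encodes the p62 scaffold that binds TRAF6 and is mutated in Paget disease of bone. It read 3057.6 and 3692.2 in deficient cultures, against 5635.3 and 5815.6 in wild-type cultures (-0.76, SE 0.12, adjusted p = 0.0027).

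The remaining fixed members of this group gave no call. The change was 0.09 for Traf5 (adjusted p = 0.806), -0.18 for the cIAP1 gene Birc2 (adjusted p = 0.351) and 0.29 for the cIAP2 gene Birc3 (adjusted p = 0.0687). Birc3 passed with quantile normalization (0.0321) and with replicate number as a block (0.0452). A second Birc3 probe set, too dim to be tested, read 64.5 and 82 in deficient cultures, against 9.9 and 21.8 in wild-type cultures.

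Among TAK1 complex, IKK and MAP kinase genes more fell than rose. Of 39 listed, 33 were on the array and 29 were tested, 6 fell and 1 rose, with a median change of -0.13. The 24.1% called is close to the 24.9% over all genes, with 20.7% lower against 12.0% over all genes and 3.4% higher against 12.9%. Ikbkg, which encodes the NEMO subunit that IKK needs to be activated through TAK1, read 365.7 and 452.5 in deficient cultures, against 781.8 and 822.6 in wild-type cultures. Its change was -0.94 (SE 0.15, adjusted p = 0.0027). Probe sets 1450161_at and 1454690_at also passed, and 1421208_at did not (-0.56, adjusted p = 0.132).

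Map2k3 (-0.60, adjusted p = 0.00609), Map2k5 (-0.60, adjusted p = 0.0403) and Mapkapk2 (-0.44, adjusted p = 0.0218), named after their values were seen, also fell. The other Map2k5 probe sets did not pass (-0.26, adjusted p = 0.42, and -0.63, adjusted p = 0.0644). Pik3ca was counted at its brighter probe set, which did not pass (-0.37, adjusted p = 0.129), though another fell (-0.60, adjusted p = 0.023). Without NFATc1-deficient replicate 1 the Map2k5 and Mapkapk2 calls were lost (adjusted p = 0.162 and 0.0943), as they were without wild-type replicate 2 for Map2k5 (0.197) and wild-type replicate 1 for Mapkapk2 (0.0736).

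Src, the tyrosine kinase that TRAF6 engages and that osteoclasts need for their ruffled border, read 339.8 and 561.4 in deficient cultures, against 880.2 and 957.1 in wild-type cultures. Its change was -1.03 (adjusted p = 0.00863), and a second probe set had -1.65 (adjusted p = 0.00119). Map4k4, a kinase upstream of JNK, changed by -0.62 (adjusted p = 0.00885). Dusp1, a phosphatase that switches off p38 and JNK, rose by 1.06 (adjusted p = 0.00262), with 681.6 and 563.8 in deficient cultures, against 311.3 and 262.2 in wild-type cultures. The TAK1 partners Tab1 (-0.48, adjusted p = 0.107) and Tab3 (0.05, adjusted p = 0.903) did not pass.

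Most other TNF receptors and ligands were too dim to test or did not pass. Of 23 receptor genes on the array 12 were tested, 2 rose and 0 fell, with a median of 0.13, which is 16.7% called against 24.9% of all genes. The count was 1 without wild-type replicate 1 or NFATc1-deficient replicate 1, and 0 without NFATc1-deficient replicate 2. Tnfrsf9, the costimulatory receptor 4-1BB, which signals through TRAF1 and TRAF2, read 415.6 and 518.1 in deficient cultures, against 281.4 and 279.7 in wild-type cultures. Its change was 0.68 (adjusted p = 0.0176), but it did not pass without NFATc1-deficient replicate 2 (adjusted p = 0.107). Cd40, a receptor of antigen-presenting cells that uses several TRAFs, was at the threshold (0.74, adjusted p = 0.0499), lost the call when any 1 array was left out (adjusted p from 0.0591 to 0.214), and had a second probe set that did not pass (0.43, adjusted p = 0.339).

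Of 14 ligand genes on the array only Ltb and Tnf were tested. Tnf read 196.2 and 24.7 in deficient cultures, against 220.3 and 84.8 in wild-type cultures. Its change did not pass (-0.66, SE 0.64, adjusted p = 0.506). Ltb, the membrane part of lymphotoxin that signals to NIK through the lymphotoxin beta receptor, read 579.6 and 679.1 in deficient cultures, against 338.4 and 299.7 in wild-type cultures (0.93, SE 0.15, adjusted p = 0.0034). The RANKL gene Tnfsf11, whose protein was supplied in the medium, read 8.3 and 20 in deficient cultures, against 15.8 and 5.3 in wild-type cultures at its brighter probe set, below the pseudocount on all 4 arrays. Tnfsf10, the gene of TRAIL, which osteoprotegerin also binds, was likewise too dim to be tested, at 2.5 and 3.4 in deficient cultures, against 7.1 and 28.6 in wild-type cultures.

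**Figure D4:**
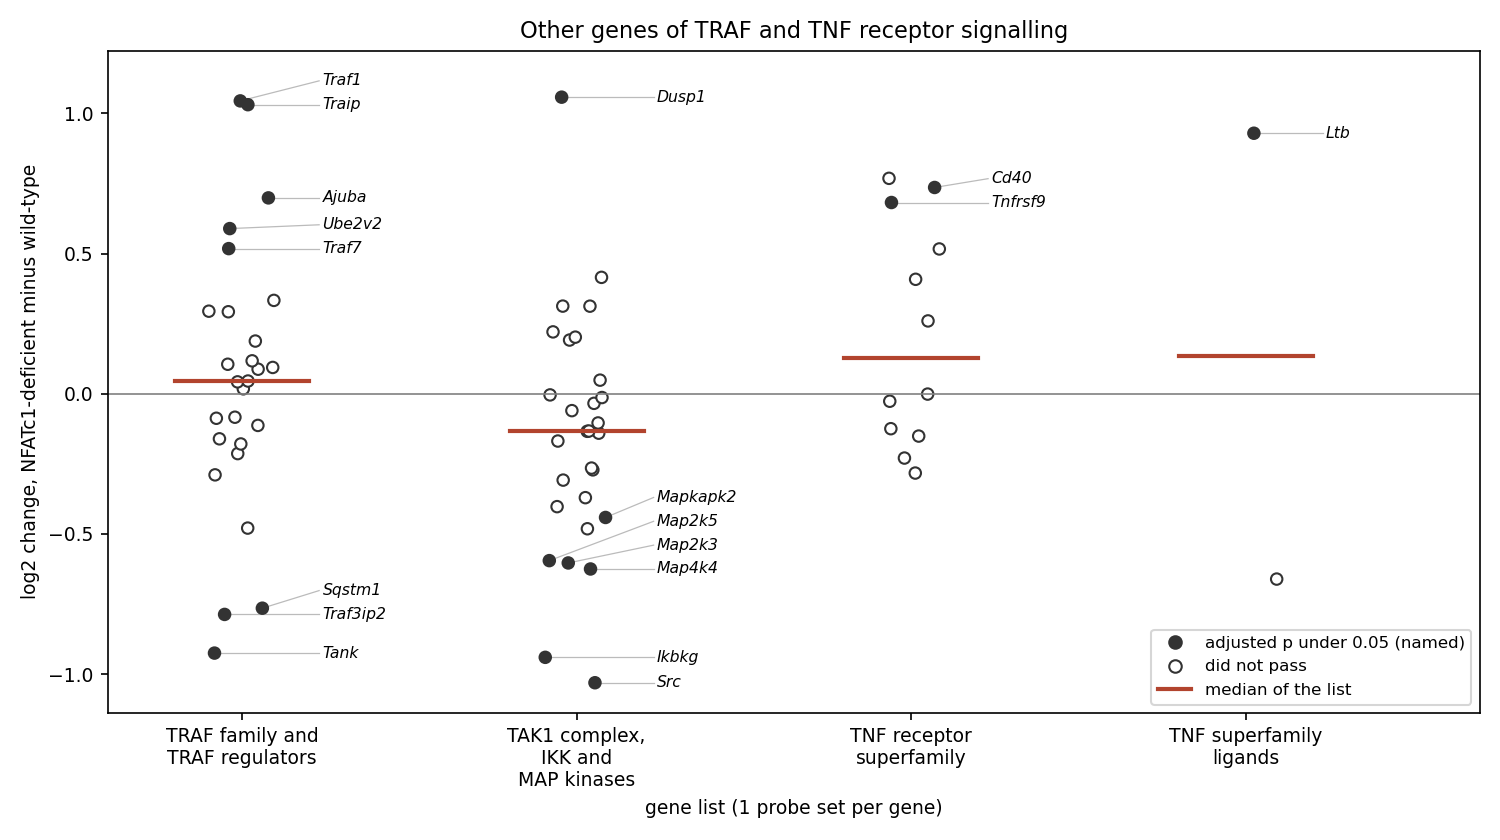
Log2 change, NFATc1-deficient minus wild-type, of 1 probe set per gene in 4 gene lists, with filled and named points for an adjusted p under 0.05, open points for genes that did not pass and bars at the list medians. The TRAF list has 5 higher and 3 lower genes, the kinase list 1 higher and 6 lower, the receptor list 2 higher and the ligand list 1 higher.

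The cultures also differed in osteoclast markers. All 10 osteoclast markers on the array fell, with a median change of -1.26. Their summed signal was 23635.7 and 31530.8 in deficient cultures, against 54971.6 and 62087.5 in wild-type cultures. Macrophage and monocyte markers summed to 31496.7 and 30279.3 in deficient cultures, against 35344.1 and 39540.2 in wild-type cultures. Of 9 tested 1 rose (Cd14) and 2 fell (Csf1r and Cd68), beside 12.9% higher and 12.0% lower over all genes. Granulocyte markers summed to 15901.2 and 7663.7 in deficient cultures, against 5556.8 and 6148.5 in wild-type cultures, and 4 of 9 rose, beside 12.9% of all genes. The part of the marker shifts in the Traf6, Traf2 and pathway results was not tested.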

How the data were processed

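RNA of the 4 cultures was hybridised to Affymetrix arrays. The authors deposited 1 linear intensity for each probe set and array, computed with MAS5 according to the submitters' processing notes, which name no version, and detection calls were not used here. Arrays were analysed as deposited. The fit left out 64 control probe sets and kept those whose mean over all arrays was above the 40th percentile (a signal of 62), and log2(signal + 23.3), the pseudocount being the 25th percentile of all values, was fitted for the whole table with limma 3.58.1 in R 4.3.3 (lmFit, eBayes with an intensity trend, two-sided, Benjamini-Hochberg adjustment over all probe sets tested). This scale understates changes of dim genes. Genes with several probe sets were counted at the brightest one tested.

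The labels name the replicates of each genotype as separate pools of mice, and the number of arrays limits the precision. The genes, lists and tests were chosen with earlier results of these data known. Genes named besides the members were Nfatc1, the most changed called genes of each list (at most 4) and 8 TRAF and ligand genes fixed by name. The 5 genes nearest to Tnfrsf11b were named as well. Sqstm1, Ajuba, Ube2v2, Traf7, Map2k3, Map2k5, Mapkapk2, Sharpin, Pik3ca and Tnf were added after their values were seen. Sharpin, Pik3ca and Tnf were not followed under the alternatives. Markers are given as sums and counts, some of them with single values. The fit was tested on simulated data. Alternatives covered the pseudocount, the filter, the variance trend, the scaling, a replicate block, leaving out each array, and averaging probe sets.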

Additional observations from a re-analysis of the deposited data

How the results depend on the processing

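Among the member probe sets, the Tnfrsf11b and Traf2 calls held under every alternative in which they were tested, and no probe set without a call gained one. The count of 5 called member probe sets was 3 without a filter, 3 with the stricter filter, which left out 1 called probe set each of Tnfrsf11b and Traf6, and from 3 to 5 when single arrays were left out. Traf6 changes that no longer passed were -0.97 (1421377_at) and -0.57 (1435350_at) without a filter, and -0.57 (1435350_at) without the variance trend. Leaving out single arrays gave -1.17 to -0.76 for 1421377_at and -0.71 to -0.42 for 1435350_at. Changes without a call that turned sign ranged from -0.39 to 0.11 for Tnfrsf11a 1419214_at, from -0.046 to 0.29 for Map3k7 1425795_a_at, from -0.078 to 0.29 for Map3k7 1426627_at and from -0.026 to 0.52 for Map3k14 1434364_at, and also from -0.11 to 0.29 for Traf5, from -0.22 to 0.32 for Tab3 and from -0.25 to 0.046 for Col1a2. Nfatc1 changes that did not pass were -0.71 and -0.55 without the variance trend and -0.53 (1425761_a_at) with median scaling, and single arrays gave -0.93 to -0.49 for 1417621_at and -0.68 to -0.41 for 1425761_a_at. The cause was not tested. Over all probe sets, 3296 calls became 2051 without the variance trend and 1794 to 3498 with single arrays left out. Higher calls, 1742 as reported, were 1157 without a filter, 990 without the variance trend and 854 to 1949 with single arrays left out, and lower calls, 1554 as reported, were 940 to 1549. The lowest counts came without NFATc1-deficient replicate 1. Of 23 other named genes with a call, 14 kept it under each of the 12 alternatives in which they were tested, the exceptions being Cd40, Traip, Traf3ip2, Tnfrsf9, Ajuba, Ube2v2, Traf7, Map2k5 and Mapkapk2. The TRAF list count of 8 was 5 with the stricter filter, 4 with none and 5 to 8 with single arrays left out; the receptor count of 2 was 0 to 2 with single arrays left out and 1 with the smaller pseudocount, no filter, the stricter filter or the block; the ligand count of 1 was 2 without NFATc1-deficient replicate 1. The replicate numbers mark pools of different size and do not tie animals across genotypes; replicate 1 deviations of the 2 genotypes correlated at 0.13 over probe sets. With the replicate block 3895 probe sets passed, and the same 5 member probe sets. The signal of Tnfrsf11b in wild-type cultures has an unknown standing against background, which limits its fold change.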
